A study of Mus musculus with 12 samples.

Results

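Cytosolic ribosomal protein genes encode the proteins that, with ribosomal RNA, form the large and small subunits of the ribosomes that translate cytosolic mRNA. Their mRNAs are known for a run of pyrimidines at the very start, the terminal oligopyrimidine (TOP) motif, through which the growth kinase complex mTORC1 sets how actively they are translated. In T cells, ribosome production is known to rise when a resting cell is activated and begins to grow and divide.

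The genes were taken by symbol from the deposited expression table: probe sets with 1 gene symbol of the Rpl or Rps form, or Rplp0, Rplp1, Rplp2 or Rpsa, without Rps6k kinases and pseudogene symbols, and with the probe set of highest mean for each gene. This gave 61 of the 19937 genes with such a probe set, 38 of the large subunit and 23 of the small subunit, on 193 probe sets. Another 17 symbols of the same form, among them Rpl11, Rps27 and Rpl22l1, lay only on probe sets that carry several symbols, and 11 more, among them Rps27a, had no probe set named here, so they are not among the 61. Of the 61 genes, 58 lay above the array's median signal on at least 3 arrays and were tested, and 3 (Rpl3l, Rpl10l and Rpl39l) did not.

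The data are 12 Affymetrix mouse gene arrays of sorted CD4+ T cells. The cells came from Peyer's patches, which are clusters of lymphoid follicles in the gut wall. All mice carried a bacterial artificial chromosome transgene in which enhanced GFP reports Il21, the gene for a helper cytokine, and all sorted cells were MHC II-negative and Epcam-negative. There were 4 groups of 3 arrays each: GFP+ T follicular helper (Tfh) cells (GFP+CXCR5+PD1+), GFP- Tfh cells (GFP-CXCR5+PD1+), CXCR5+PD1- cells (GFP-) and CXCR5-PD1- cells (GFP-). Tfh cells are the CD4+ T cells that help B cells in follicles. GFP is the output of a transgene and not of the mouse's own Il21 gene, and age, sex, strain background and any pooling of animals are not given in the sources used here. On the GFP+ arrays the sample characteristics give CXCR5 and PD1 as negative, while the titles and the sorting protocol give them as positive, and the groups follow the titles. Values are log2 expression, differences are log2 differences ± SE from limma, and a gene is called higher or lower where its Benjamini-Hochberg adjusted p, taken over all 11240 genes tested, lies under 0.05. Whether the replicates are separate animals is not stated in the labels. The p-values therefore speak only of the spread among these arrays, which may be technical, and 3 arrays a group limit the precision.

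Cxcr5, Pdcd1 and Il21 were higher in the Tfh gates by 2.92, 2.09 and 3.71. Cxcr5 does not bear out the label of the CXCR5+PD1- arrays, where it averaged 5.61 ± 0.37, against 5.71 ± 0.43 on the CXCR5-PD1- arrays (SD, n = 3 each), a difference of -0.10 ± 0.26 (limma, adjusted p = 1.0), with both means under the array medians. The sorting protocol names the other 3 gates and not CXCR5+PD1-, so this name stands below for the arrays labelled so, and the pooled result is given with and without them. The GFP+ Tfh arrays varied most over all genes, with root mean square deviations (each array against its own group's mean) of 0.287 to 0.405, against 0.163 to 0.204 on the other arrays. Over the ribosomal protein genes these deviations were 0.176 to 0.256 on GFP+ Tfh arrays and 0.0984 to 0.161 on the others. In every group Xist was high and Eif2s3y low on replicate 3 and the reverse on replicates 1 and 2, so each group holds female and male cells in the same share.

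The starts of the genes are shown first, because the TOP motif is what most of these mRNAs are known to share. RefSeq (GRCm38.p6) gave a transcription start for 49 of the 61 genes. Only the strand with the sequence of the mRNA was read. A start was counted as TOP-like where its first base was C and at least the next 4 bases were C or T. This held for 10 of the 49 genes (20.4%), against 813 of all 27025 genes in the table (3.01%). Annotated starts can lie some bases away from the starts that cells use, so a gene without this run at its annotated start may still have a TOP mRNA. Each line below gives 10 bases before the start and 20 from it, with the pyrimidine run in capitals.
Rps15a: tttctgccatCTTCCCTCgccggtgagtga
Rps10: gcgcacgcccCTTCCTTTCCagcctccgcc
Rplp2: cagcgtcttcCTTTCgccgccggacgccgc
Rpl14: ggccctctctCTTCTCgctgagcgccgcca
Rpl38: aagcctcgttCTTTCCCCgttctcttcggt
Rps18: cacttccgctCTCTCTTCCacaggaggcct
Rpl32l: aaatgaccagCTTCTTCCTTggtgctgcct
Rpl28: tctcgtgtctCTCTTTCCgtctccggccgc
Rps21: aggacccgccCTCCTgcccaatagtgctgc
Rps6: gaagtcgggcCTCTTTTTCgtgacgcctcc
These windows lie at chr7:118116128-118116157 (minus strand) for Rps15a, chr17:27635225-27635254 (minus) for Rps10, chr7:141447641-141447670 (plus) for Rplp2, chr9:120571507-120571536 (plus) for Rpl14 and chr11:114668570-114668599 (plus) for Rpl38. The others lie at chr17:33955646-33955675 (minus) for Rps18, chr10:20208429-20208458 (plus) for Rpl32l, chr7:4792955-4792984 (plus) for Rpl28, chr2:180257369-180257398 (plus) for Rps21 and chr4:86857348-86857377 (minus) for Rps6. The run was 5 to 10 bases long. In the comparison of both Tfh gates with both PD1- gates, described next, 6 of these 10 genes were lower and their median difference was -0.32. Of the 36 tested genes with an annotated start but no such run, 16 were lower, with a median difference of -0.26. Over all 58 ribosomal protein genes tested 27 were lower, with a median of -0.28, and over all genes tested 5.33% were lower. Whether the run goes with a larger difference was not tested.

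Ribosomal protein transcripts were lower in Tfh cells than in the PD1- cells, as a broad and shallow shift in both subunits. Of the 58 genes tested, 27 were lower in the pooled Tfh gates and 0 were higher, where 5.33% of all genes tested were called lower and 5.05% higher (limma, adjusted p under 0.05). At an unadjusted p under 0.05 the counts were 43 lower and 0 higher. Without the arrays labelled CXCR5+PD1-, an alternative chosen after seeing the data, both Tfh gates over CXCR5-PD1- cells gave 10 genes lower and 0 higher, where 2.57% of all genes were called lower and 2.33% higher, and the median was -0.28. The 10 were Rps15a, Rps25, Rps10, Rps19, Rps3, Rps7, Rpl8, Rpl14, Rpl19 and Rplp2, and the calls of the other 17 rest on these arrays being in the fit. The median difference over the 58 genes was -0.28, with quartiles of -0.41 and -0.18, against a median of -0.02 over all genes tested. The difference lay below 0 for 56 of the 58 genes, against 53.9% of all genes. On 35 genes every one of the 6 Tfh arrays lay below every one of the 6 PD1- arrays, and on 0 genes they all lay above, where 4.07% and 3.49% of all genes did. In sorted bulk cells a lower share of cells with a transcript and less of it per cell cannot be told apart, and the arrays were normalised to a common distribution, so these are levels relative to the rest of each array and not amounts of ribosomal mRNA per cell.

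**Figure D1:**
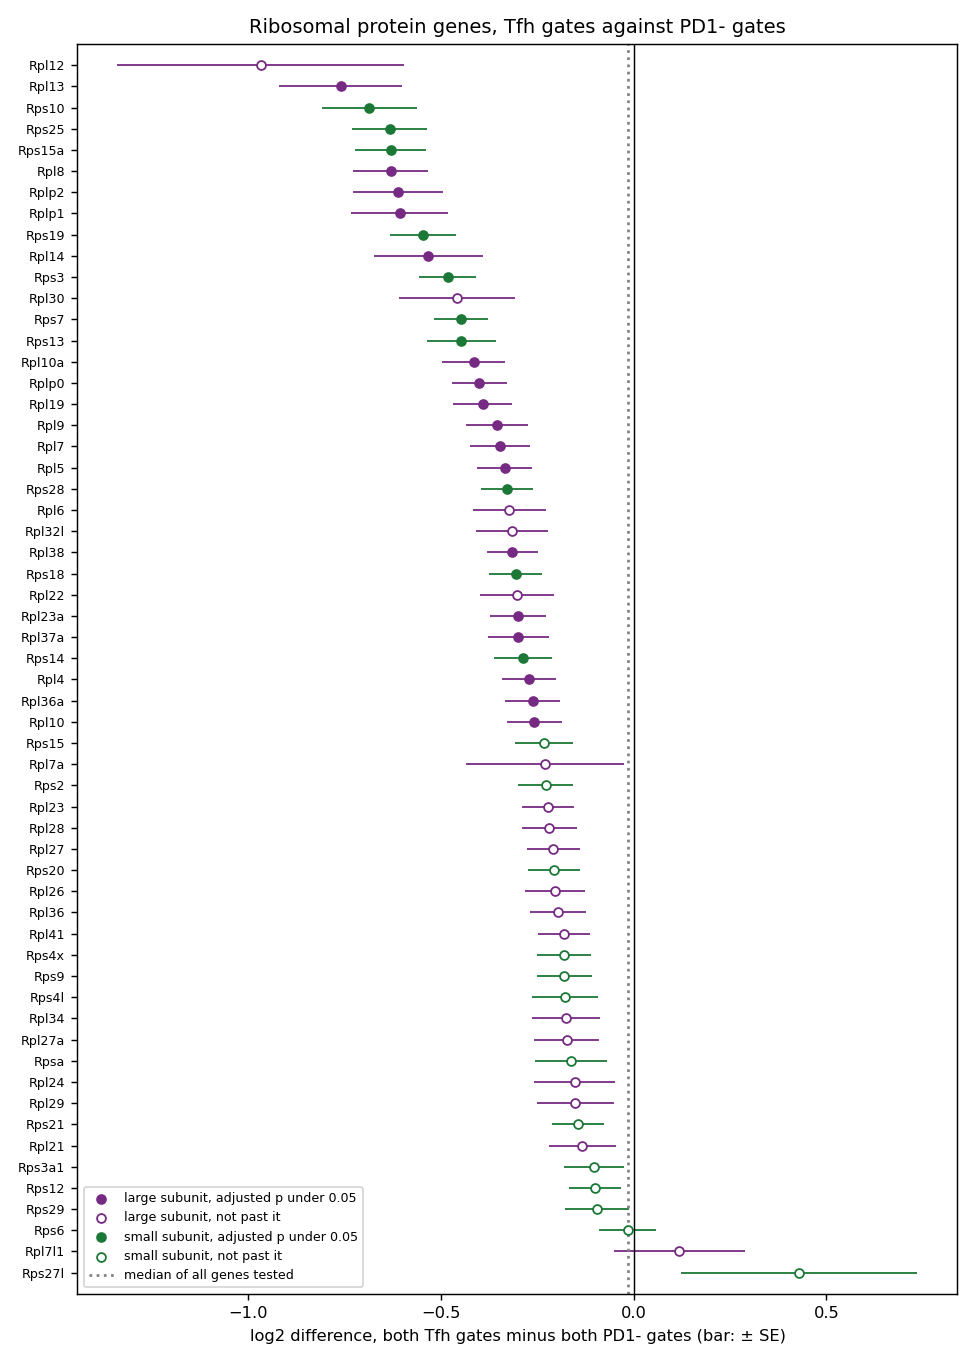
Log2 difference of each of the 58 ribosomal protein genes tested, both Tfh gates minus both PD1- gates, with bars of ± 1 SE. Filled points mark the 27 genes with an adjusted p under 0.05, purple is the large subunit and green the small subunit, and the dotted line is the median of all genes tested (-0.02). The genes run between -0.97 for Rpl12 and 0.43 for Rps27l, and 56 lie left of 0.

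The shift stood on every array. The median level over the 58 genes was 11.85, 11.78 and 11.80 on the GFP+ Tfh arrays and 11.84, 11.83 and 11.87 on the GFP- Tfh arrays, against 12.07, 12.14 and 12.24 on the CXCR5+PD1- arrays and 12.10, 12.12 and 12.22 on the CXCR5-PD1- arrays. All 6 Tfh arrays thus lay below all 6 PD1- arrays. Within single replicate numbers the median difference was -0.26 in replicate 1, -0.23 in replicate 2 and -0.33 in replicate 3, with 55, 55 and 56 of the 58 genes below 0, so the 2 male replicates and the female one showed the same direction. Both Tfh group means lay below both PD1- group means for 54 genes, an order found for 27.2% of all genes tested. The lowest of the 4 group means was that of GFP+ Tfh cells for 37 genes and that of GFP- Tfh cells for 19. Over all genes tested these groups were lowest for 34.3% and 23.3%. The highest was that of CXCR5+PD1- cells for 19 genes and that of CXCR5-PD1- cells for 36, against 27.2% and 22.4% of all genes.

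**Figure D2:**
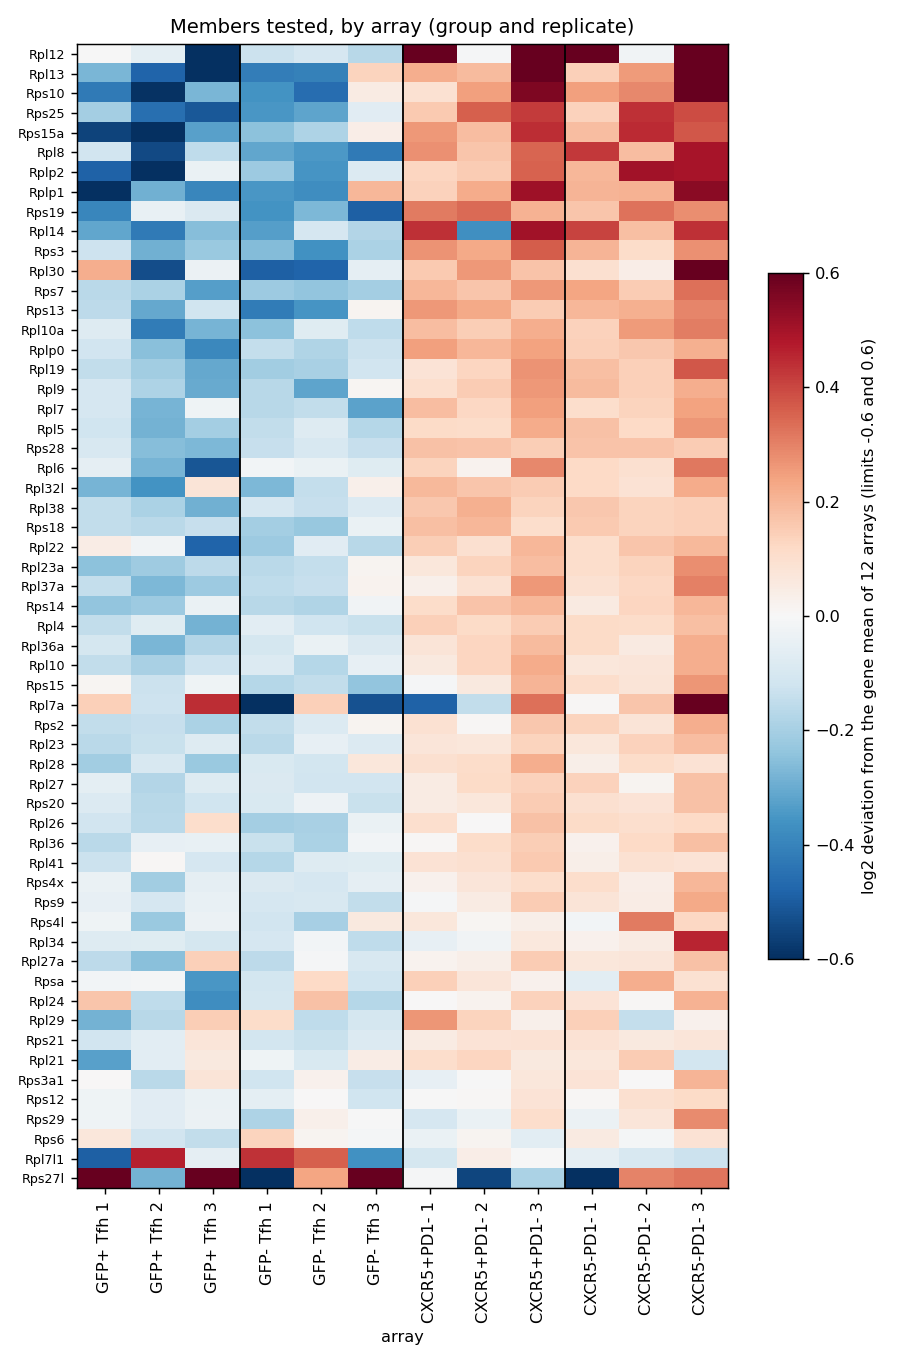
Deviation of each array from the 12-array mean of the gene, in log2 units (colour scale limited at -0.6 and 0.6), for the 58 genes tested, ordered by their difference between Tfh and PD1- gates. Columns are the 12 arrays by group and replicate. The 6 Tfh columns are mostly blue and the 6 PD1- columns mostly red in the upper rows, and the lowest rows (Rps6, Rpl7l1, Rps27l) show no such split.

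Of the 23 small subunit genes tested 10 were lower. Rps15a, a small subunit protein, had the smallest p. It stood at 8.22, 8.16 and 8.45 on the GFP+ Tfh arrays and at 8.52, 8.59 and 8.81 on the GFP- Tfh arrays, against 9.03, 8.96 and 9.21 on the CXCR5+PD1- arrays and 8.96, 9.22 and 9.15 on the CXCR5-PD1- arrays. The Tfh and PD1- arrays did not overlap, and the difference was -0.63 ± 0.09 (limma, adjusted p = 0.001), which is 0.646 times the PD1- level.

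Rps25, known for its part in initiation at internal ribosome entry sites, ranged over 11.32, 11.50 and 11.77 (lowest, median and highest) on the Tfh arrays, against 11.97, 12.21 and 12.27 on the PD1- arrays. Its difference was -0.63 ± 0.10 (limma, adjusted p = 0.001). With the mean of its probe sets in place of the highest one it was -0.28 (limma, adjusted p = 0.128), which no longer passed. Rps10, a protein that is ubiquitinated when ribosomes collide, lay at 10.95 to 11.59 (median 11.15) on the Tfh arrays and 11.64 to 12.17 (median 11.81) on the PD1- arrays, with a difference of -0.69 ± 0.12 (limma, adjusted p = 0.004). In both genes the groups did not overlap, and in Rps10 the highest Tfh array, GFP- replicate 3 at 11.59, came close to the lowest PD1- array, CXCR5+PD1- replicate 1 at 11.64.

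Rps19, the gene most often mutated in Diamond-Blackfan anaemia, an inherited failure of red cell production, stood at 10.14, 10.49 and 10.45 in GFP+ Tfh cells and at 10.18, 10.26 and 10.05 in GFP- Tfh cells. It stood at 10.85, 10.88 and 10.75 in CXCR5+PD1- cells and at 10.70, 10.86 and 10.82 in CXCR5-PD1- cells. The groups did not overlap, and the difference was -0.55 ± 0.09 (limma, adjusted p = 0.001). Rps3, at the mRNA entry channel, was lower, at -0.48 ± 0.07, and so was Rps7, at -0.45 ± 0.07 (limma, adjusted p = 0.001 for each), with 11.34 to 11.57 on the Tfh arrays and 11.81 to 12.06 on the PD1- arrays for Rps3. Rps13 was lower too, at -0.45 ± 0.09, without overlap, but not with the mean of its probe sets (-0.39, limma adjusted p = 0.081). Of a chosen list of genes known in Diamond-Blackfan anaemia, which is not complete, 7 were tested and 4 were lower (Rps19, Rps10, Rps7 and Rpl5). The other tested genes of that list, Rpl27, Rpl26 and Rps29, lay at -0.21, -0.20 and -0.10 and did not pass.

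**Figure D3:**
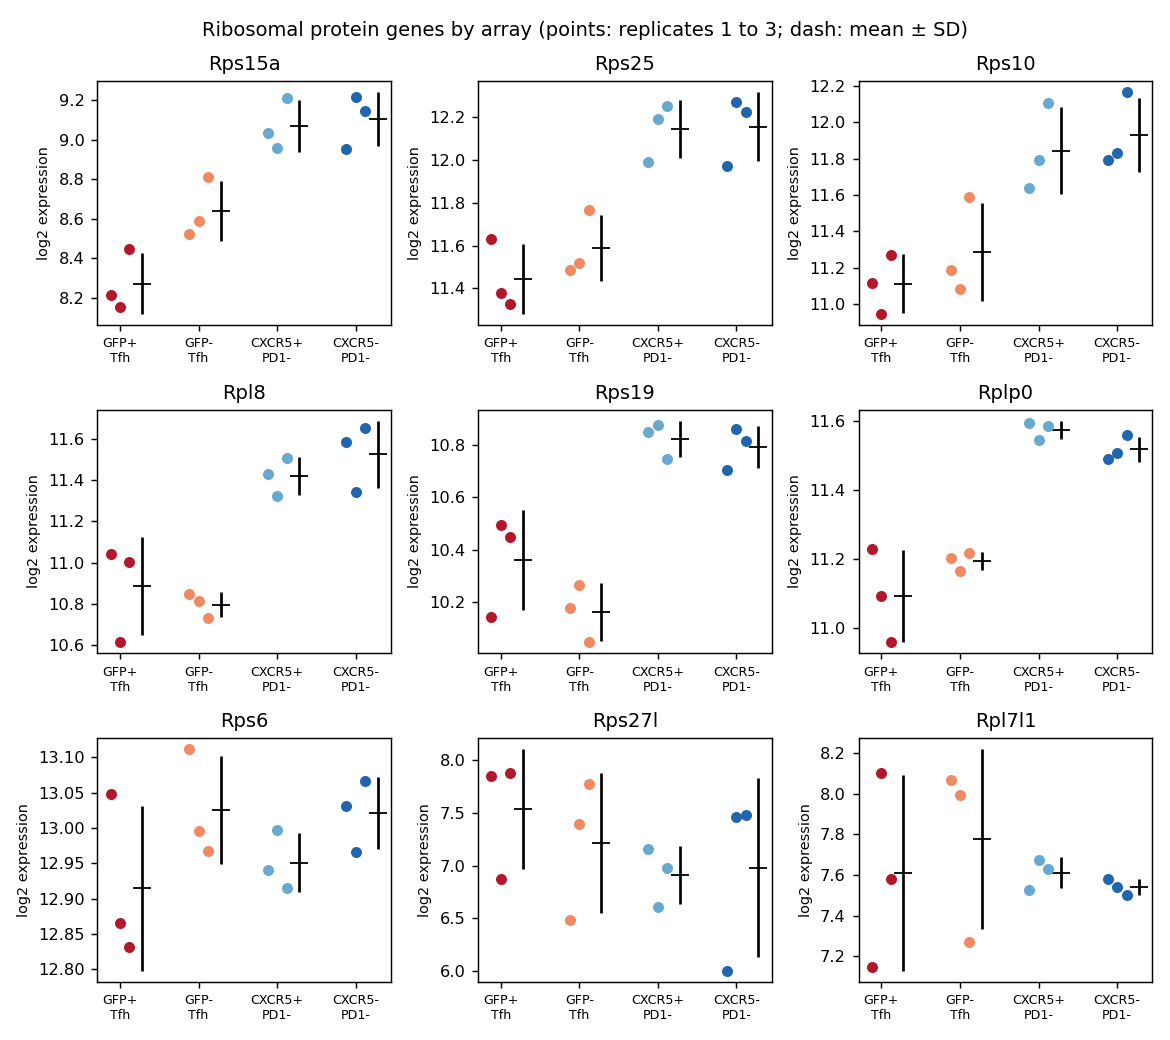
Log2 expression of 9 ribosomal protein genes on each array (points, replicates 1 to 3 from left to right) with the group mean ± SD (n = 3). The upper 6 genes have all Tfh arrays below all PD1- arrays, for example Rps15a at 8.16 to 8.81 against 8.96 to 9.22. In Rps6, Rps27l and Rpl7l1 the arrays of the 4 groups overlap, and each panel has its own vertical range.

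Of the 35 large subunit genes tested 17 were lower. Rpl8, which lies beside the peptidyl transferase centre, stood at 11.04, 10.62 and 11.00 in GFP+ Tfh cells and at 10.85, 10.81 and 10.73 in GFP- Tfh cells. In CXCR5+PD1- cells it stood at 11.43, 11.32 and 11.51, and in CXCR5-PD1- cells at 11.58, 11.34 and 11.65. All Tfh arrays lay below all PD1- arrays, and the difference was -0.63 ± 0.10 (limma, adjusted p = 0.001).

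Rpl13 had the largest difference of the called genes, -0.76 ± 0.16 (limma, adjusted p = 0.009), at 10.63 to 11.61 (median 11.07) on the Tfh arrays and 11.62 to 12.21 (median 11.71) on the PD1- arrays. Its groups were set apart by 1 array, since GFP- Tfh replicate 3 at 11.61 nearly reached CXCR5-PD1- replicate 1 at 11.62. Rpl10a, of the stalk that helps release tRNA, was lower, at -0.42 ± 0.08, and so was Rpl19, of an intersubunit bridge, at -0.39 ± 0.08 (limma, adjusted p = 0.006 for each). The call of Rpl19 did not hold with the mean of its probe sets, where its difference was -0.16 (limma, adjusted p = 0.454). Rpl5, which carries the 5S RNA and binds Mdm2 when ribosome assembly fails, was lower, at -0.34 ± 0.07 (limma, adjusted p = 0.010), with 11.76 to 11.96 on the Tfh arrays and 12.15 to 12.31 on the PD1- arrays. Rpl38, needed in mice for translation of Hox mRNAs, had the smallest spread between replicates of the genes tested, a pooled SD of 0.0446. It lay at 12.04 to 12.24 on the Tfh arrays and 12.46 to 12.54 on the PD1- arrays, a difference of -0.31 ± 0.07 (limma, adjusted p = 0.010). With the mean of their probe sets neither Rpl5 (-0.33, limma adjusted p = 0.072) nor Rpl38 (-0.23, limma adjusted p = 0.096) passed.

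The P stalk of the large subunit recruits the elongation factors, and its 3 proteins are encoded by Rplp0, Rplp1 and Rplp2. Rplp0 stood at 11.23, 11.09 and 10.96 in GFP+ Tfh cells and 11.20, 11.17 and 11.22 in GFP- Tfh cells, against 11.59, 11.54 and 11.59 in CXCR5+PD1- cells and 11.49, 11.51 and 11.56 in CXCR5-PD1- cells. All 3 stalk genes were lower. The difference was -0.40 ± 0.07 for Rplp0, -0.61 ± 0.13 for Rplp1 and -0.61 ± 0.12 for Rplp2 (limma, adjusted p = 0.004, 0.009 and 0.005). The arrays did not overlap for Rplp0 and Rplp2. For Rplp1 they did, since GFP- Tfh replicate 3 at 12.38 lay above CXCR5+PD1- replicate 1 at 12.32. Rpsa, the small subunit protein that also serves as a laminin receptor, overlapped between the groups and lay at -0.16 ± 0.09 (limma, adjusted p = 0.362).

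Some genes of known interest in T cells passed narrowly or not at all. Rpl10, a late-joining protein mutated in some human T cell leukaemias, was lower, at -0.26 ± 0.07 (limma, adjusted p = 0.040), a call made in 8 of the 22 other settings run for it. Rpl22, needed in mice for the development of alpha beta T cells, lay at 8.08 to 8.61 on the Tfh arrays and 8.66 to 8.76 on the PD1- arrays, without overlap, and at -0.30 ± 0.10 it did not pass (limma, adjusted p = 0.074). Without GFP+ Tfh replicate 1 it did, at -0.35 (limma, adjusted p = 0.030). Rpl23, which with Rpl5 binds Mdm2, lay at -0.22 (limma, adjusted p = 0.059).

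Rps6, the small subunit protein phosphorylated by S6 kinases downstream of mTORC1, showed no detectable difference. It stood at 13.05, 12.87 and 12.83 in GFP+ Tfh cells and 13.11, 13.00 and 12.97 in GFP- Tfh cells, against 12.94, 13.00 and 12.92 in CXCR5+PD1- cells and 13.03, 12.97 and 13.07 in CXCR5-PD1- cells. The difference was -0.02 ± 0.07 (95% interval -0.18 to 0.14, limma adjusted p = 0.946), and its sign turned to 0.07 after cyclic loess normalisation. Its 6 probe sets above the median lay between -0.33 and 0.01. Rps29, Rps12 and Rps3a1 were the next closest to 0 on the lower side, at -0.10 each, and did not pass. With its probe sets averaged, Rps29 lay at -0.38 and Rps12 at -0.31 (limma, adjusted p = 0.022 and 0.012), so for these genes the value depends on the probe set.

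Rpl12 had the lowest value of all, -0.97 ± 0.37, and the widest spread between replicates, a pooled SD of 0.762. It stood at 7.34, 7.28 and 4.89 in GFP+ Tfh cells and 7.21, 7.24 and 7.17 in GFP- Tfh cells, against 8.06, 7.34 and 8.11 in CXCR5+PD1- cells and 8.02, 7.32 and 8.11 in CXCR5-PD1- cells. GFP+ Tfh replicate 3 stood far below all other arrays, replicate 2 of both PD1- groups lay at the Tfh level, and the difference did not pass (limma, adjusted p = 0.141).

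Of the genes listed as close relatives of a ribosomal protein 3 were tested (Rps27l, Rpl7l1 and Rps4l), and 0 of them passed in this comparison. Rpl32l, whose symbol has the same form but which was not on that list, lay at -0.32 ± 0.09 without overlap. It did not pass either (limma, adjusted p = 0.054). Rps27l, a relative of Rps27 that p53 induces, lay at 7.85, 6.88 and 7.88 in GFP+ Tfh cells and 6.48, 7.40 and 7.77 in GFP- Tfh cells, against 7.15, 6.61 and 6.97 in CXCR5+PD1- cells and 6.0, 7.46 and 7.48 in CXCR5-PD1- cells. Its arrays overlapped, and the difference of 0.43 ± 0.31 did not pass (limma, adjusted p = 0.508). Rpl7l1, a relative of Rpl7, lay at 0.12 ± 0.17, while Rpl7 itself was lower, at -0.35 ± 0.08 (limma, adjusted p = 0.013). Rps4l lay at -0.18 ± 0.09 and its parent gene Rps4x at -0.18 ± 0.07, and neither passed. Rpl3l, known from muscle in mice, and Rpl10l and Rpl39l, known from testis in mice, had group means of 5.62 to 5.70, 5.14 to 5.45 and 4.71 to 5.02 and lay under the array medians of 6.34 to 6.45.

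Ribosomal protein genes have many processed pseudogene copies, and whether probes also match transcripts of these copies was not tested. Different probe sets gave the same direction for most genes. Of the 193 probe sets 180 lay above the median signal, and 166 of these were below 0, with a median of -0.31. Among the 122 that were not used for a gene's level, 110 were below 0, with a median of -0.32. Of the 37 genes with at least 2 such probe sets, 30 had all of them below 0 and 7 (Rpl19, Rpl21, Rpl23a, Rpl27a, Rps25, Rps4x and Rps6) had both signs. Averaging all probe sets of each gene called 26 of 57 genes lower, of which 20 were among the 27. Rpl24, Rpl27, Rps12, Rps15, Rps21 and Rps29 were called only with averaging. Rpl5, Rpl19, Rpl23a, Rpl36a, Rpl38, Rps13 and Rps25 were called only with the brightest probe set. For Rpl24, Rps15 and Rps29 the brightest lay at -0.15, -0.23 and -0.10, and a dimmer one at -0.63, -0.68 and -0.59. For Rpl38 and Rps25 the brightest lay lowest. Whether bright signals compress differences was not tested. Probe sets that carry several symbols, at least 1 of them a ribosomal protein gene, gave a median of -0.27 over the 188 above the median signal, with 167 below 0, against 55.1% below 0 over all such probe sets of the array. On 51 of them all Tfh arrays lay below all PD1- arrays, where 3.66% of all probe sets did.

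The differences can also be read by the signal of the probe set. In the 28 genes with a mean log2 signal of 12 or more, 13 were lower and the median difference was -0.23, against 2 lower and a median of 0.03 in the 47 other genes of that range. In the 18 genes at 10 to 12, 13 were lower and the median was -0.42, against 54 lower (9.61%) and a median of 0.01 in the 562 other genes. In the 12 genes under 10, 1 was lower (Rps15a) and the median was -0.22, against 4.88% lower in the 10573 other genes. Among the other genes the share lower was thus raised at 10 to 12 and not at 12 or more.

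GFP+ and GFP- Tfh cells, the comparison named in the study's design, did not differ detectably in these genes. Il21, the gene that GFP reports, stood at 10.60 ± 0.31 in GFP+ and 9.96 ± 0.34 in GFP- Tfh cells (SD, n = 3 each). Its difference of 0.63 ± 0.56, without overlap, was not called (limma, adjusted p = 0.824). The comparison therefore cannot be read as one of Tfh cells with and without Il21 mRNA. Of the 58 genes 0 were called, where 0.0445% of all genes tested were called lower and 0.0% higher, and at an unadjusted p under 0.05 there was 1 gene. The difference lay below 0 for 38 genes, against 53.7% of all genes. The median difference was -0.05, against -0.02 over all genes, and it turned to 0.02 after cyclic loess and after centring each array on its genes tested. The 1 gene was Rps15a, at 8.27 ± 0.15 in GFP+ Tfh cells and 8.64 ± 0.15 in GFP- Tfh cells (SD, n = 3 each), a difference of -0.37 ± 0.13 with no overlap (limma, adjusted p = 0.559). Rps15a and Rpl38 had all GFP+ arrays below all GFP- arrays and Rps15 all above, which held for 5.65% and 3.09% of all genes.

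The limits of this comparison can be given for each gene. The 95% interval of the difference lay within 0.5 log2 units of 0 for 46 of the 58 genes and within 0.25 for 8, and it reached a median of 0.243 to either side. Rpl7a had the highest difference, 0.54 ± 0.29, and Rpl12 the lowest, -0.70 ± 0.53, and neither passed. The value of Rpl12 rested on 1 array, since without GFP+ Tfh replicate 3 it was 0.10. Rps27l at 0.32 ± 0.43 was turned to -0.05 by leaving out GFP- Tfh replicate 1. Rpl13 lay at -0.31 ± 0.23, Rplp1 at -0.26 ± 0.18, Rpl6 at -0.24 ± 0.13, Rpl30 at 0.23 ± 0.21 and Rps19 at 0.20 ± 0.12.

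**Figure D4:**
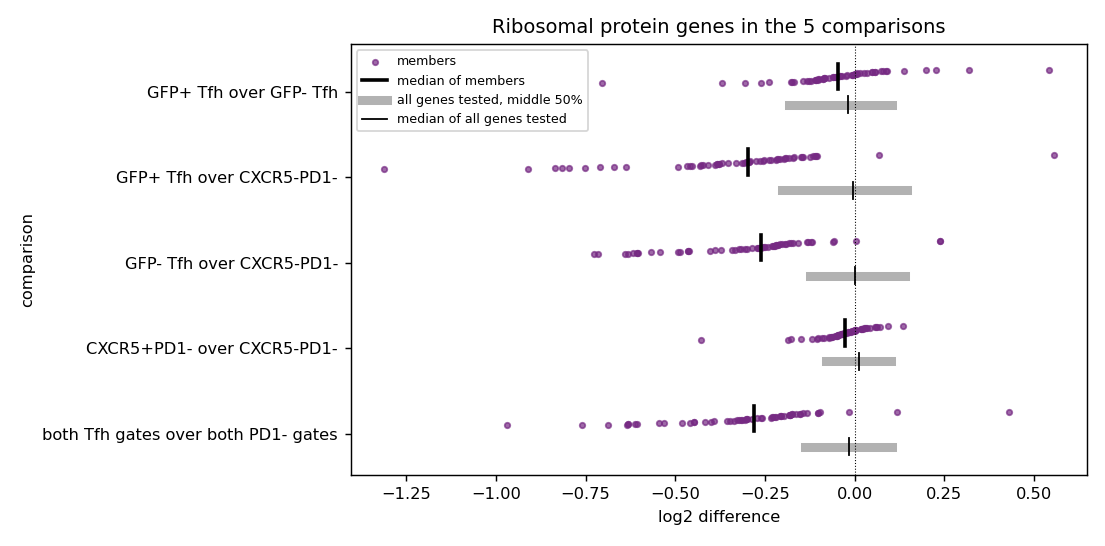
Log2 differences of the 58 ribosomal protein genes tested (points) in the 5 comparisons, with the median of these genes (thick line), the middle 50% of all genes tested (grey bar) and their median (thin line). The points of each comparison are spread upwards in order of value for visibility. The medians of the genes are -0.05, -0.30, -0.26, -0.03 and -0.28 from top to bottom.

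Each Tfh gate was also set against CXCR5-PD1- cells, the gate without either Tfh marker by its label. These 2 comparisons share the CXCR5-PD1- arrays, so their values are given side by side and not as support for each other. In GFP+ Tfh cells 15 of 58 genes were lower and 0 higher, where 3.75% of all genes were called lower and 2.45% higher. The median difference was -0.30, with 56 genes below 0 against 50.6% of all genes. All GFP+ Tfh arrays lay below all CXCR5-PD1- arrays on 43 genes and above them on 0, against 10.8% and 7.99% of all genes. In GFP- Tfh cells 5 of 58 genes were lower and 0 higher, where 1.6% of all genes were called lower and 2.22% higher. The median was -0.26, with 55 genes below 0 against 49.9% of all genes. All GFP- Tfh arrays lay below on 46 genes and above on 0, against 10.2% and 11.4% of all genes. At an unadjusted p under 0.05 the counts were 36 and 34 genes.

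The 5 genes called in GFP- Tfh cells were Rpl8 at -0.73 ± 0.14, Rps19 at -0.63 ± 0.12, Rps25 at -0.57 ± 0.14, Rps3 at -0.47 ± 0.10 and Rps7 at -0.46 ± 0.10. In GFP+ Tfh cells the same genes lay at -0.64 ± 0.14, -0.43 ± 0.12, -0.71 ± 0.14, -0.41 ± 0.10 and -0.47 ± 0.10, and all but Rps19 (limma, adjusted p = 0.062) were called there too. Rps25 in GFP- Tfh cells no longer passed with the replicate number as a block (limma, adjusted p = 0.054). With the mean of its probe sets it passed in neither gate (limma, adjusted p = 0.213 in GFP+ and 0.215 in GFP- Tfh cells). The largest differences called in GFP+ Tfh cells were those of Rpl13 (-0.91 ± 0.23), Rps15a (-0.83 ± 0.13), Rps10 (-0.82 ± 0.18), Rplp2 (-0.80 ± 0.16) and Rplp1 (-0.75 ± 0.18). In GFP- Tfh cells these 5 genes lay at -0.61, -0.47, -0.64, -0.62 and -0.49, and none of them was called. With the mean of its probe sets Rpl13 in GFP+ Tfh cells lay at -0.59 (limma, adjusted p = 0.054).

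These 2 counts depended on single arrays. The count of 15 was 6, 5 and 1 without CXCR5-PD1- replicate 1, 2 or 3. It was 5 and 9 without GFP+ Tfh replicate 2 or 3. The share of all genes called lower, 3.75% with every array, fell too in these fits. It was 2.41%, 2.38% and 1.71% without those CXCR5-PD1- arrays, and 2.82% and 3.42% without those GFP+ Tfh arrays. The count of 5 was 3, 1 and 0 without CXCR5-PD1- replicate 1, 2 or 3. It was 2 without GFP- Tfh replicate 1 and without replicate 2. Of all genes 1.6% were called lower with every array, and 1.07%, 1.04% and 0.792% without those CXCR5-PD1- arrays. Without those GFP- Tfh arrays the shares were 1.12% and 0.907%. With both Tfh and both PD1- gates pooled the count of 27 stayed between 20 and 30 without any 1 array. The share of all genes called lower then ran between 4.0% and 7.68%.

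The arrays labelled CXCR5+PD1- and CXCR5-PD1- did not differ detectably in these genes, nor in Cxcr5 itself (the values above), so the comparison cannot be read as one of cells with and without this follicle homing receptor. Of the 58 genes 0 were called by limma and 0 passed at an unadjusted p under 0.05, where 0.0% of all genes were called and 137 of 11240 passed unadjusted. The median difference was -0.03, with 38 genes below 0 against 46.1% of all genes, and no gene was without overlap, against 3.36% of all genes in the lower and 5.37% in the higher direction. The values ran between -0.43 for Rpl7a and 0.13 for Rpl29. The 95% interval lay within 0.5 log2 units of 0 for 51 genes and within 0.25 for 11.

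Other parts of the translation machinery were described with the same fit, both Tfh gates against both PD1- gates, where 5.33% of all genes tested were lower and 5.05% higher. Mitochondrial ribosomal protein genes, which build the separate ribosome of mitochondria, numbered 0 lower and 2 higher of 75, with a median of -0.06. The 2 higher genes were Mrps6 at 0.83 ± 0.12 and Mrps21 at 0.63 ± 0.15 (limma, adjusted p = 0.0007 and 0.020). Genes for making ribosomes and for RNA polymerase I numbered 8 lower and 1 higher of 48, with a median of -0.26. Among them the assembly ATPase Mdn1 (-0.73 ± 0.09), the snoRNP protein Nop56 (-0.59 ± 0.10) and the small subunit nuclease Nob1 (-0.53 ± 0.10) were lower. Ubtf, the RNA polymerase I factor UBF, was higher, at 0.53 ± 0.09 (limma, adjusted p of 0.0003, 0.003, 0.005 and 0.002 in this order).

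Translation elongation factors numbered 3 lower and 0 higher of 8, with a median of -0.25. They were Eef1b2 at -0.57 ± 0.10, Eef1d at -0.30 ± 0.08 and Eef2 at -0.28 ± 0.07 (limma, adjusted p = 0.002, 0.039 and 0.030). Initiation factors numbered 1 lower (Eif4a2 at -0.26 ± 0.07, limma adjusted p = 0.047) and 0 higher of 30, with a median of -0.04. Other genes known to have TOP mRNAs numbered 5 lower and 0 higher of 18, all 18 below 0, with a median of -0.20. These 18 are not a separate set: they hold elongation factors and an initiation factor (Eif3e) already counted. They also hold Fau, listed elsewhere as a ribosomal protein gene made as a fusion. The lowest was Vim at -0.92 ± 0.15. Genes of mTORC1 signalling numbered 1 lower and 2 higher of 22, with a median of 0.02. The stress-induced mTORC1 inhibitor Sesn1 was lower, at -1.37 ± 0.22 (limma, adjusted p = 0.001). Of the 2 higher genes Rragc, a Rag GTPase through which amino acids activate mTORC1, was higher by 0.56 ± 0.13 (limma, adjusted p = 0.016). The other is not named here, and the activity of mTORC1 was not tested. The counts of the initiation factors and of mTORC1 signalling lie near the shares over all genes and say nothing about these lists. The 2 higher of 75 mitochondrial ribosomal protein genes do not exceed the 5.05% higher over all genes, so they do not show that list as higher.

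**Figure D5:**
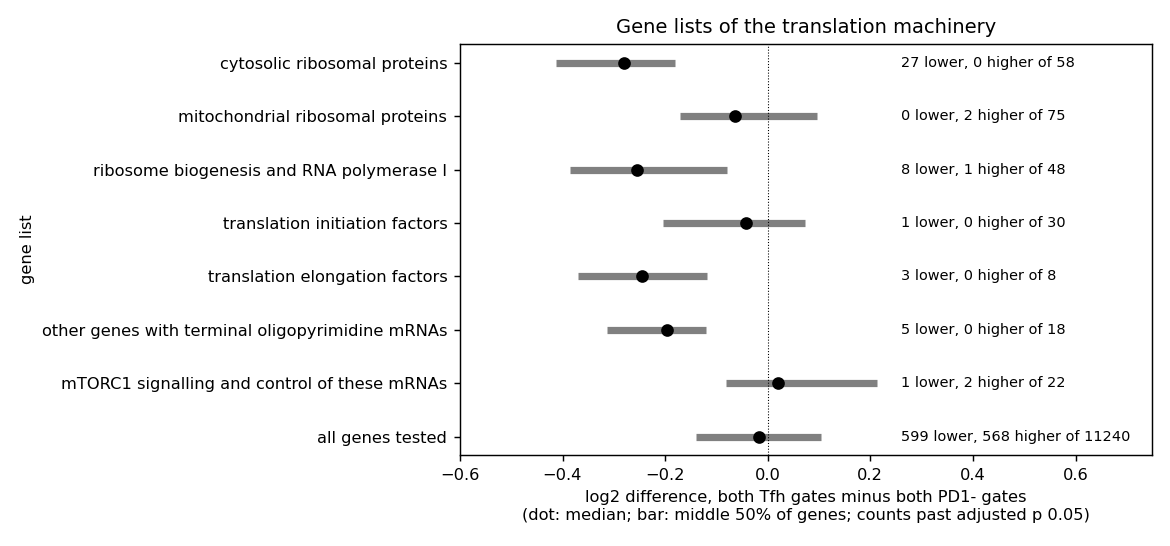
Median (dot) and middle 50% (bar) of the log2 differences, both Tfh gates minus both PD1- gates, of the cytosolic ribosomal protein genes, of 6 other lists of the translation machinery and of all 11240 genes tested. The counts at the right are genes with an adjusted p under 0.05. The cytosolic ribosomal protein genes have 27 lower and 0 higher of 58, and the mitochondrial ribosomal protein genes 0 lower and 2 higher of 75. Of all genes tested 5.33% were lower and 5.05% higher.

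Markers of other cells were read on the same arrays. Lists for myeloid, germinal centre B and plasma, and epithelial cells and for class II were also read and are not described in full. Of the myeloid list, Lyz2 lay 1.38 ± 0.38 above in GFP+ over GFP- Tfh cells without overlap, and was not called (limma, adjusted p = 0.416). Cd68 and Fcgr1 of that list overlapped between these gates. The CD8, NK and gamma delta T cell list moved in the same direction as the ribosomal protein genes: 2 of its 5 genes tested were lower in the Tfh gates, Prf1 at -0.62 ± 0.12 and Cd8b1 at -0.46 ± 0.13 (limma, adjusted p = 0.005 and 0.048). Over the 8 genes of that list on the array, the median level relative to the array median was -0.46 to -0.22 in GFP+ Tfh, -0.28 to 0.02 in GFP- Tfh, -0.17 to 0.07 in CXCR5+PD1- and 0.11 to 0.24 in CXCR5-PD1- cells, and its part in the result was not tested. Of the B cell list 1 of 3 genes tested (Pax5, by 0.30 ± 0.07) was higher in the Tfh gates, and Cd79b and Ighm were not. The group means of Pax5, 6.10 to 6.57, lay near the array medians of 6.34 to 6.45. The list's median level lay 0.79 to 1.26 below the array median on all arrays. Over all genes tested 5.33% were lower and 5.05% higher in the Tfh gates. CD4 T cell markers lay 4.56 to 4.94 above the array median on every array.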

How the data were processed

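The authors deposited log2 expression values for 34760 probe sets on 12 arrays, and per the submitters' processing notes RMA and the oligo package were used, with no version given. RMA subtracts background, equalises the arrays' distributions and summarises probes on the log2 scale, so a shift of most transcripts together is removed and differences of dim probe sets are compressed. No source used here gives a build for the array annotation, and the coordinates printed are those of the RefSeq table (GRCm38.p6).

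Names come from the platform's annotation table, and older symbols were updated by gene identifier. Of 21640 probe sets with 1 symbol 21553 were matched. A further 1321 had several symbols and 11799 were unnamed here. All 12 columns were mapped to samples, and groups follow the titles. A gene was tested if it exceeded the array median of all probe sets (6.34 to 6.45) on at least 3 arrays.

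All contrasts came from 1 model of the 12 arrays (limma 3.58.1, R 4.3.3, lmFit and eBayes, 8 residual degrees of freedom), adjusted over 11240 genes with Benjamini-Hochberg at 0.05. The fit was tested on simulated data with known changes. Python 3.11.15 made counts and figures.

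Members, lists and tests were chosen with earlier results of these data known. Members named with values are those with the smallest p (up to 12) in a comparison, the 6 highest and 6 lowest differences in the first and last comparisons, and a fixed set: stalk genes, Rpsa, close relatives with their parent gene, Rps6, Rps19, Rpl5, Rpl22, Rpl38, Rpl10 and the gene with the widest spread. Genes of a list named whole, those with a TOP-like start, and those with both signs over probe sets are named irrespective of size. From other lists up to 4 genes with the smallest p are named. Rpl23, Rpl24, Rpl29, Rpl36a, Rps15 and the difference of Rpl32l were named after their values were seen.

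Same-numbered arrays deviated together in CXCR5+PD1- over CXCR5-PD1- (correlations 0.210 to 0.353). In the other pairs of gates that were compared directly the correlations were positive too, at 0.0118 to 0.283. In each of these pairs at least 1 correlation lay under 0.1. The Tfh gates were not paired with CXCR5+PD1- cells here. What a number marks is not in the labels, though same-numbered arrays shared sex by Xist and Eif2s3y. The main model has no block, so it leaves out any pairing by number, and counts with such a block are given below. Alternatives changed the filter, normalisation, moderation, weights, probe set rule, arrays fitted or block, left out 1 array or, added after seeing the data, left out the CXCR5+PD1- group.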

Additional observations from a re-analysis of the deposited data

How the results depend on the processing

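Both Tfh gates over both PD1- gates gave 22 to 39 genes lower under 9 alternatives, where 2.88% to 9.27% of all genes tested were. Without any 1 array the count was 20 to 30, where 4.0% to 7.68% of all genes were lower. It was 10 with CXCR5-PD1- as the only PD1- gate (9 arrays, chosen after seeing the data), where 2.57% of all genes were lower. Of the 27 genes, 27 stayed below 0 and 7 stayed called in all 22 settings. With the replicate block the counts were 27 for this comparison, 13 for GFP+ Tfh over CXCR5-PD1- and 6 for GFP- Tfh over CXCR5-PD1-. Of all genes tested 5.66%, 4.37% and 1.98% were called lower there. The other comparisons gave 0 with the block. With it Rps25 in GFP- Tfh and Rpl5, Rpl38 and Rps28 in GFP+ Tfh cells, all over CXCR5-PD1- cells, no longer passed. GFP+ over GFP- Tfh and CXCR5+PD1- over CXCR5-PD1- gave 0 in every setting, where over all genes tested GFP+ over GFP- Tfh gave 0 to 237.

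For GFP+ Tfh over CXCR5-PD1- the 15 were 30 with trended and robust moderation, 23 with a weight per array and 2 with a weight per group. They were 1 with only the groups compared in the fit, and 1 to 16 without 1 array. In that order 3.85%, 7.82%, 1.57%, 1.31% and 1.71% to 7.25% of all genes were called lower. For GFP- Tfh over CXCR5-PD1- the 5 were 18, 18 and 13 under the first 3 of these settings and 0 to 5 without 1 array. There 1.71%, 3.29%, 2.96% and 0.792% to 1.12% of all genes were called lower. The median difference after cyclic loess was -0.21 for both Tfh over both PD1- gates, -0.18 for GFP+ Tfh over CXCR5-PD1- and 0.019 for GFP+ over GFP- Tfh. The last was 0.020 after centring and -0.013 with probe sets averaged, which gave -0.35 for GFP+ Tfh over CXCR5-PD1-. In GFP+ over GFP- Tfh, a weight per array turned Rpl8 to -0.11 and Rpl30 to -0.00041, and without 1 array Rpl12 ran between -1.12 and 0.10 and Rps27l between -0.048 and 0.65. In both Tfh over both PD1- gates, Rps6 was 0.069 after cyclic loess and -0.049 to 0.0049 without 1 array, and Rpl7l1 -0.0057 to 0.24. The cause of these changes was not tested. Of 1104 values of named genes under alternatives 948 kept their direction and their side of the threshold. The number of arrays, 3 a group, limits all values.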
